A study of Mus musculus with 9 samples.

Results

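Transcript levels of 44 autophagy and lysosome genes were followed in mouse substantia nigra through a single fast and through a week of intermittent fasting. The genes were named individually: 32 encode proteins of the autophagy pathway or the transcription factors that control it, and 12 encode lysosomal proteins. All 44 were found once among the 20591 rows of the count table, and all passed the low-count filter, as did 20535 rows in total. The lowest estimated count of any of them in any library was 415.

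The 9 RNA-seq libraries were made from substantia nigra lysate of wild type C57BL/6 mice that had all received a sham surgery, 12 weeks old at the start of the diets. Mice of the ad libitum group had food at all times for 1 week and were moved between cages like the others. Mice of the 1 day group were fasted once for 24 hours, and mice of the 1 week group went through the intermittent regimen for 1 week, with 3 such fasts. Each group has 3 libraries. The labels do not tie each library to its own animal, so p-values measure the spread between libraries, which may be technical in part. The labels do not state the time from the last fast to tissue collection. With sham-operated mice alone, the comparisons describe the response to fasting in tissue without a disease model.

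Macroautophagy encloses cytoplasm in a double membrane, the autophagosome, and delivers it to lysosomes for digestion. A kinase complex around ULK1 starts the process when nutrients are low, a lipid kinase complex marks the membrane, conjugation enzymes attach ATG8 proteins to lipid, and receptors such as p62 bring the cargo. TFEB and its relatives TFE3 and MITF switch on lysosomal and autophagy genes after fasting in liver and in cultured cells. Most of the rapid control acts on proteins through phosphorylation and localisation. Transcript counts measure neither that control nor the flux of material through lysosomes.

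TFEB binds the CLEAR element, whose core is the E-box CACGTG. Promoters in the RefSeq table (build GRCm38.p6, not the build GRCm39 that the submitters name) were searched on both strands from 250 bases before to 50 bases after each start site. Both motifs searched, CACGTG and TCACGTGA, read the same on either strand, and every TCACGTGA holds a CACGTG. The table gives 42 promoters for 35 of the 44 genes. For 35 of the 42 promoters, bases just after the start site matched a 5′ part of a transcript of the gene. The listed start sites were not otherwise checked. CACGTG was found in 11 of these 42 promoters (26.2%) and in 7.15% of all 32851 promoters, and TCACGTGA in 6 of 42 (14.3%) and in 0.974% of all. The 6 genes with the longer motif were Atg3, Atp6v0d1, Atp6v1a, Ctsa, Ctsd and Mcoln1, and the other genes with the core alone were Atg5, Atg7, Atg14, Ctsl and Lamp1. A match of letters is no evidence of binding. The 30 bases around the longer motif are shown for these 6 genes, which were picked after the search, 5′ to 3′ on the strand of the gene with the motif in capitals.
Atg3 (chr16:45158746-45158775, plus strand): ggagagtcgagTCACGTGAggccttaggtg
Atp6v0d1 (chr8:105566050-105566079, minus strand): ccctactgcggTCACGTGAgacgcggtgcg
Atp6v1a (chr16:44139373-44139402, minus strand): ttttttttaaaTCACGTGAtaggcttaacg
Ctsa (chr2:164833749-164833778, plus strand): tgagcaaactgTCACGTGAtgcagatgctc
Ctsd (chr7:142387908-142387937, minus strand): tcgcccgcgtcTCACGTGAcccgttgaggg
Mcoln1 (chr8:3500462-3500491, plus strand): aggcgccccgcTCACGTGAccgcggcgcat

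Atg14 and Ctsl hold the core motif and were also among the 6 genes with the smallest p after 1 day, so their promoters are shown at length, from 250 bases before to 10 bases after the start site. The capitals mark CACGTG, which spans the start site of Atg14 and lies near the far end of the Ctsl stretch.
Atg14 (chr14:47568425-47568684, minus strand): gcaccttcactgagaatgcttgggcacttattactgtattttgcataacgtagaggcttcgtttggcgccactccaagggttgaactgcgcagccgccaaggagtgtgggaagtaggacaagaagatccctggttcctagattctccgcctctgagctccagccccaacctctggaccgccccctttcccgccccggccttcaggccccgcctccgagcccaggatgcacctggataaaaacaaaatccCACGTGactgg
Ctsl (chr13:64370511-64370770, minus strand): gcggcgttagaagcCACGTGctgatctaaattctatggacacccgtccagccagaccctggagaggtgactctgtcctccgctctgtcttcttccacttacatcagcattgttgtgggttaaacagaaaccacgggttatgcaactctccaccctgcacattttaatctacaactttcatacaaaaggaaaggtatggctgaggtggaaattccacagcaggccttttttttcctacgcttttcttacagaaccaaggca

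The libraries held 36109995 to 54248856 counts. Levels are given as CPM, estimated counts scaled to the effective size of the library. Markers of dopaminergic neurons, which define the dissected region, summed to between 695 and 1730 CPM, and none of the marker genes was at 0 in any library. Markers of cortical glutamatergic neurons summed to 560 CPM in 1 week replicate 3 and to between 11.0 and 65.6 CPM elsewhere. Markers of choroid plexus summed to 378 CPM in ad libitum replicate 3 and to between 14.0 and 52.1 CPM elsewhere.

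The largest deviations within a group, over these 44 genes, were those of 1 day replicate 2. In 1 day replicate 2 the median absolute difference from the mean of the other libraries of its group was 0.26 on the log2 scale, against 0.16 and 0.13 in 1 day replicates 1 and 3, 0.19 in 1 week replicate 2 and 0.05 to 0.08 in the ad libitum libraries. Of the 44 genes, 14 had their highest and 15 their lowest level of all 9 libraries in it. The same was seen across all 10430 genes at 10 CPM or more, where the median was 0.27. The deviations fell along transcript GC content, with Pearson's r over the 44 genes of -0.65, a description over genes that share 1 library. GC content also went with the smaller deviations of other libraries, with r of 0.77 and 0.42 in 1 day replicates 1 and 3, whose reference mean includes 1 day replicate 2, and 0.62 in ad libitum replicate 2. Over the 10408 genes at 10 CPM or more with a known GC content, r was weaker in each of these libraries. It was -0.43 in 1 day replicate 2, 0.62 and 0.09 in 1 day replicates 1 and 3, and 0.51 in ad libitum replicate 2. Over the counts of all genes, ad libitum replicate 2 was the library farthest from the others, at a chi-square per gene of 164 to 324 against each, while other pairs had 26.5 to 161. Its median absolute difference over the 44 genes was 0.08, and without it the medians of the 44 log2 fold changes were -0.06 after 1 day and -0.04 after 1 week. In 1 day replicate 2, the lowest deviations were those of Ulk1, Atg2a and Atg9a, whose transcripts are rich in GC (-1.06, -1.05 and -1.02). The highest were those of Ctsl, Nbr1 and Becn1 (0.88, 0.59 and 0.58). The deviation of 1 week replicate 2 from its group had the same sign as that of 1 day replicate 2 for 33 of the 44 genes. The r of these deviations was 0.68 over the 44 genes and 0.50 over genes at 10 CPM or more. The libraries 1 day replicate 2 and 1 week replicate 2 are called those that stood apart. The fit without both was set beside the fit of all 9.

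**Figure D1:**
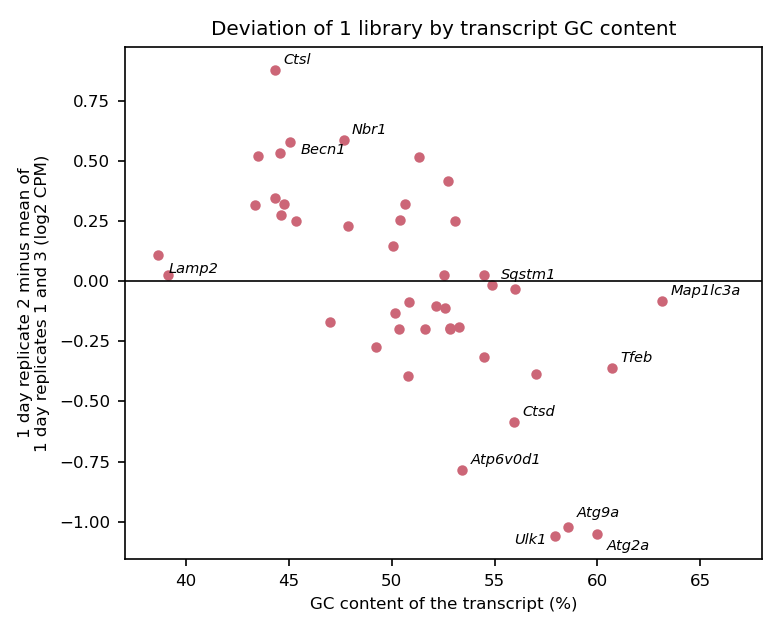
Each point is 1 of the 44 genes: the x axis is the GC content of its transcript in percent, and the y axis is the log2 CPM of 1 day replicate 2 minus the mean of 1 day replicates 1 and 3. Ulk1, Atg2a and Atg9a lie near -1 at the GC-rich side and Ctsl lies highest at 0.88.

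None of the 44 genes passed the test (edgeR quasi-likelihood F test, Benjamini-Hochberg adjusted p under 0.05 over all genes) in any comparison. After 1 day, 12 of 20535 genes passed (0.0584%), after 1 week 63 passed (0.307%), and between 1 week and 1 day none did (0%). DESeq2 and limma voom also called none of the 44, and they called 3 and 0 genes between the fasted groups. At an unadjusted p under 0.05, none of the 44 was higher after 1 day (background 4.37%) and 3 were lower (6.82%, background 4.90%): Tfeb, Atg4b and Wipi1. After 1 week, Uvrag alone was higher (2.27%, background 6.33%) and none was lower (background 4.90%). Tfeb alone differed between the fasted groups (2.27%, background 5.22%).

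The differences were small. The median log2 fold change was -0.04 after 1 day and -0.04 after 1 week, while the median over all genes tested was 0.00 in both. The median size regardless of sign was 0.17 after 1 day and 0.13 after 1 week, against 0.19 and 0.17 over all genes. After 1 day the values ran from -0.48 for Tfeb to 0.49 for Ctsl, with 19 above and 25 below 0. After 1 week they ran from -0.26 for Wipi1 to 0.32 for Uvrag, with 18 above and 26 below 0. Both comparisons share the ad libitum libraries. Between 1 week and 1 day the median was -0.01, and 0.04 without both libraries that stood apart. In that smaller fit the values ran from -0.37 for Tfeb to 0.18 for Sqstm1 after 1 day and from -0.17 for Tfeb to 0.26 for Uvrag after 1 week, with a median size of 0.10 and 0.07. The sign differed for 9 genes after 1 day (Ulk1, Atg2b, Atg3, Atg12, Map1lc3a, Nbr1, Tfe3, Npc2 and Atp6v1h) and for 5 after 1 week (Gabarapl2, Nbr1, Lamp2, Mcoln1 and Atp6v1h). A further 18 and 21 genes kept their sign with a value at least 1.5 times smaller. The libraries left out were picked by deviations in these same genes, so smaller values without them are no independent result. In the fit of all libraries, the 6 smallest p-values between 1 week and 1 day belonged to Tfeb (0.34), Gabarap (0.20), Tfe3 (0.20), Uvrag (0.20), Atg16l1 (-0.12) and Atg14 (-0.13). Their adjusted p was 0.853 for the first 5 and 0.854 for Atg14.

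The pointwise 95% interval of the difference lay within 1.5-fold in both directions for 34 of the 44 genes after 1 day, for 40 after 1 week and for 38 between the fasted groups. It lay within 2-fold for all 44 in each comparison. The outermost limits were those of Atg2a at -0.82 and Ctsl at 0.99 after 1 day. Standard errors were between 0.08 and 0.24, with a median of 0.12. These limits are not the smallest differences that the adjusted test could detect. With 3 libraries per group, small differences were not detectable and those of 1.5-fold could fail that test.

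**Figure D2:**
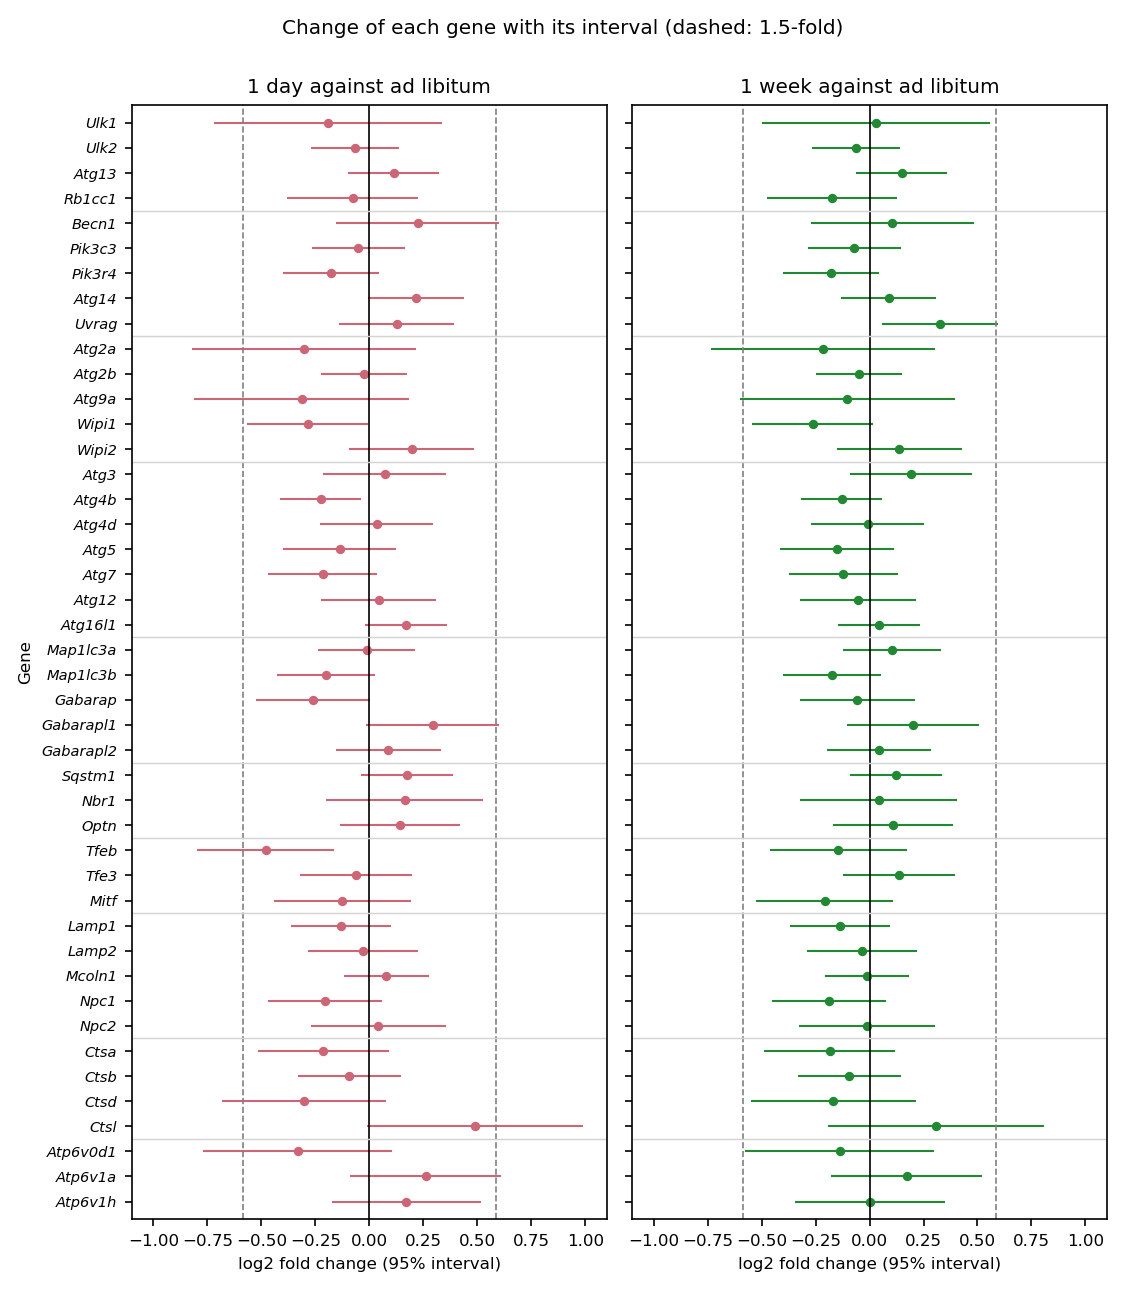
Points are log2 fold changes of the 44 genes (y axis, grouped by role) after 1 day and after 1 week against ad libitum, lines are pointwise 95% intervals, and dashed lines mark 1.5-fold. No interval reaches 2-fold, and those of Ulk1, Atg2a, Ctsl and Atg9a are the widest.

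Without regard to a test, the 3 fasted libraries lay wholly above the 3 ad libitum libraries for 5 of the 44 genes after 1 day (11.4%), against 8.17% of all genes and 8.53% of genes at 10 CPM or more. They lay wholly below for 10 (22.7%), against 10.3% and 11.2%. The 5 were Atg14, Wipi2, Atg16l1, Gabarapl1 and Sqstm1, and the 10 were Tfeb, Atg4b, Wipi1, Gabarap, Map1lc3b, Atg7, Pik3r4, Ctsa, Ctsd and Atp6v0d1. After 1 week 7 lay wholly above (15.9%, against 10.9% and 7.67%) and 8 wholly below (18.2%, against 11.5% and 14.4%). Atg14 and Gabarapl1 lay above in both comparisons, and Pik3r4, Wipi1, Atg4b and Gabarap below in both. Between the fasted groups 5 genes did not overlap (11.4%, background 7.79%): Atg4b, Tfeb and Tfe3 were higher after 1 week, and Atg14 and Atg16l1 lower. None of these genes passed the test.

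**Figure D3:**
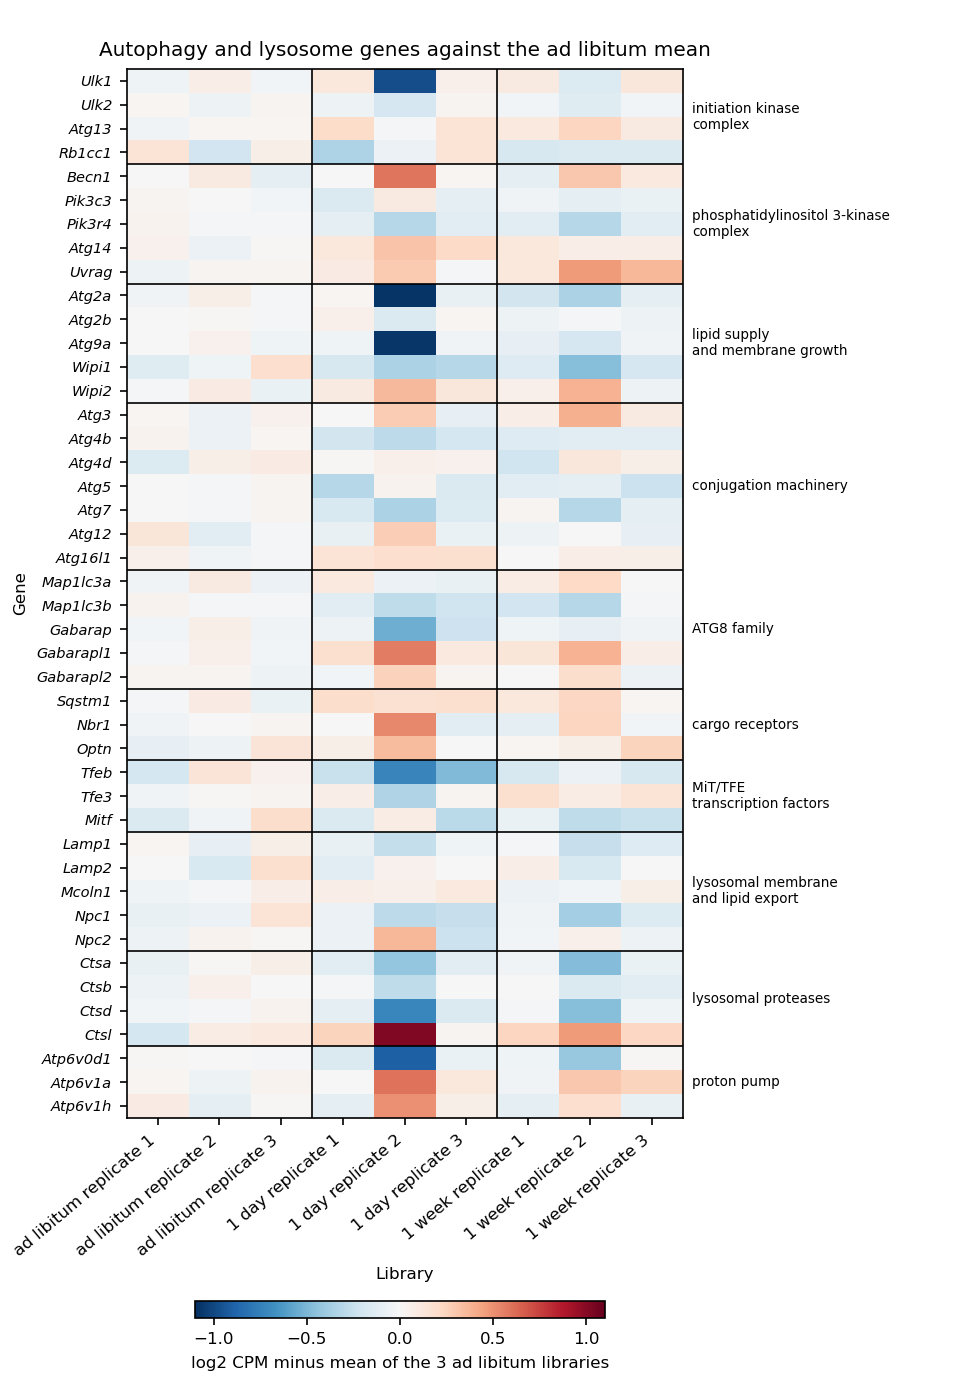
Rows are the 44 genes by role, columns the 9 libraries, and colour the log2 CPM minus the mean of the 3 ad libitum libraries. The column of 1 day replicate 2 holds the strongest colours in both directions, with Ulk1, Atg2a and Atg9a lowest and Ctsl highest.

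The MiT/TFE transcription factors include the gene with the smallest p, Tfeb (ENSMUSG00000023990), which encodes the master regulator of lysosomal genes. Tfeb was at 17.0, 21.5 and 20.2 CPM in the ad libitum libraries, at 16.4, 11.7 and 13.9 CPM after 1 day and at 17.2, 18.6 and 17.3 CPM after 1 week. All 3 libraries of the 1 day group lay below all ad libitum and all 1 week libraries, the first of them by a small margin. The log2 fold change after 1 day was -0.48 (SE 0.14, 95% interval -0.80 to -0.16, 1.39-fold lower), with an unadjusted p of 0.00709 and an adjusted p of 0.417. With 1 day and 1 week replicates 2 left out it was -0.37, with an adjusted p of 0.371. Against 1 day, the 1 week level differed by 0.34 (SE 0.14, adjusted p = 0.853), or 0.19 without both libraries. After 1 week against ad libitum the value was -0.14 (SE 0.14, adjusted p = 0.767).

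The other transcription factors of the family differed by less. Tfe3, at 33.1 to 34.9 CPM in the ad libitum group, had log2 fold changes of -0.06 and 0.14 after 1 day and 1 week. Mitf, at 12.4 to 15.8 CPM, had values of -0.13 and -0.21. Of the 3 genes none passed, and only Tfeb had an interval that left out 0.

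**Figure D4:**
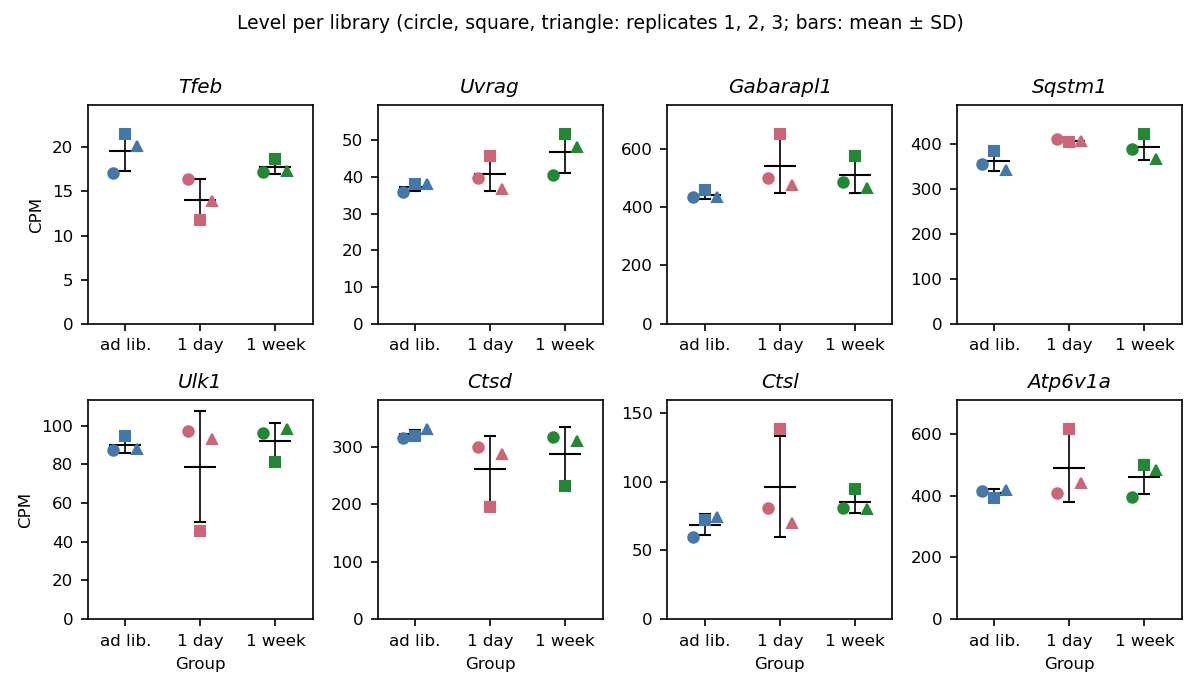
CPM per library (y axis from 0) for 8 genes in the ad libitum, 1 day and 1 week groups; circles, squares and triangles are replicates 1, 2 and 3, and bars are the mean and SD. The squares of the 1 day group are far from the other libraries for Ulk1, Ctsd, Ctsl and Atp6v1a, while the 3 libraries of Sqstm1 after 1 day lie together at 406 to 413 CPM.

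Of the initiation kinase complex, none of the 4 genes passed the test, with log2 fold changes from -0.19 to 0.11 after 1 day and from -0.17 to 0.15 after 1 week. Ulk1 encodes the kinase that starts autophagosome formation. Its level was 87.2, 94.7 and 88.0 CPM in the ad libitum group, 97.4, 45.7 and 93.2 CPM after 1 day and 96.5, 81.0 and 98.3 CPM after 1 week. After 1 day 1 library of 3 was low and the other two lay above or within the ad libitum range. For Ulk1 the value after 1 day was -0.19 (SE 0.24, adjusted p = 0.768), and without 1 day replicate 2 it was 0.08. After 1 week it was 0.03 (SE 0.24, adjusted p = 0.978).

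Its relative Ulk2 had values of -0.07 and -0.06. Atg13, the adaptor that ULK1 phosphorylates, was at 82.1 to 85.4 CPM in the ad libitum group and at 90.2 to 99.4 CPM after 1 week, without overlap (log2 fold change 0.15, SE 0.09, adjusted p = 0.616). Rb1cc1, which encodes the scaffold FIP200, had values of -0.08 and -0.17.

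The phosphatidylinositol 3-kinase complex makes the lipid that marks the growing membrane. Its 5 genes ranged from -0.18 to 0.22 after 1 day and from -0.18 to 0.32 after 1 week, and none passed. Uvrag (ENSMUSG00000035354), whose product directs the complex to later steps of autophagosome and endosome maturation, had the smallest p after 1 week. Its level was 35.9, 38.0 and 38.1 CPM in the ad libitum group, 39.7, 45.6 and 36.8 CPM after 1 day and 40.4, 51.8 and 48.1 CPM after 1 week. The 1 week libraries all lay above the ad libitum libraries, while the 1 day libraries overlapped them. The log2 fold change after 1 week was 0.32 (SE 0.12, interval 0.06 to 0.59, 1.25-fold higher), with an unadjusted p of 0.0223 and an adjusted p of 0.345. With 1 day and 1 week replicates 2 left out it was 0.26. Between 1 week and 1 day Uvrag differed by 0.20 (adjusted p = 0.853).

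Atg14 encodes the subunit that places the complex at the site of autophagosome formation, in place of UVRAG. Atg14 was at 16.8, 15.5 and 16.4 CPM in the ad libitum group, at 17.6, 20.2 and 18.8 CPM after 1 day and at 17.6, 17.1 and 17.1 CPM after 1 week. Both fasted groups lay above the ad libitum group by small margins, with log2 fold changes of 0.22 (SE 0.10, adjusted p = 0.542) and 0.09 (SE 0.10, adjusted p = 0.799). Pik3r4, the regulatory subunit, was at 53.0 to 55.1 CPM in the ad libitum group and lower in all 6 fasted libraries, at 43.2 to 49.9 CPM. Its log2 fold change was -0.18 in both comparisons (adjusted p = 0.569 and 0.568), and -0.11 in both without the libraries that stood apart. Becn1, the core subunit Beclin 1, stood at 96.0 CPM in 1 day replicate 2 and at 59.4 to 78.8 CPM in the other 8 libraries, and its values of 0.22 and 0.11 became 0.00 and 0.01 without them. Pik3c3, the catalytic subunit, had values of -0.05 and -0.07.

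The 5 genes of lipid supply and membrane growth ranged from -0.31 to 0.20 after 1 day and from -0.26 to 0.14 after 1 week, and none passed. Atg9a encodes the membrane protein of the seed vesicles, and Atg2a a lipid transfer protein. Atg9a was at 114 to 121 CPM in the ad libitum group, at 114, 56.1 and 114 CPM after 1 day and at 111, 103 and 115 CPM after 1 week. Atg2a was at 62.7 to 67.5 CPM, then 65.5, 30.5 and 61.0 CPM, then 56.2, 50.6 and 60.1 CPM. In both genes a single 1 day library lay far below the rest. The median over the 5 genes of this role was -0.28 after 1 day and -0.03 without both libraries that stood apart.

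Wipi1, a reader of the membrane lipid, was less tied to that library. Its level was 26.1, 27.6 and 32.5 CPM in the ad libitum group, 25.4, 22.5 and 23.0 CPM after 1 day and 26.0, 20.7 and 25.1 CPM after 1 week. Every fasted library lay below every ad libitum library, in the case of the nearest by about 0.1 CPM. For Wipi1 the log2 fold changes were -0.28 (SE 0.13, adjusted p = 0.533) and -0.26 (SE 0.13, adjusted p = 0.477), and -0.25 and -0.16 without both libraries. Its relative Wipi2 had values of 0.20 and 0.14 (0.11 and 0.01 without both libraries), and Atg2b of -0.02 and -0.05.

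The conjugation machinery activates and attaches the ATG8 proteins. Its 7 genes ranged from -0.23 to 0.17 after 1 day and from -0.15 to 0.19 after 1 week. Atg4b, the main protease that primes ATG8 proteins and later frees them from lipid, was at 61.0, 56.6 and 60.2 CPM in the ad libitum group, at 51.6, 48.6 and 51.8 CPM after 1 day and at 53.6, 54.6 and 54.5 CPM after 1 week. The 3 groups did not overlap, with the 1 week group between the others. Its value was -0.23 (SE 0.08, interval -0.41 to -0.04, unadjusted p = 0.0234, adjusted p = 0.503) after 1 day and -0.13 after 1 week. Atg16l1, part of the complex that fixes the site of lipidation, was at 34.8 to 37.2 CPM in the ad libitum group and at 39.7 to 40.8 CPM after 1 day (log2 fold change 0.17, adjusted p = 0.547).

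Atg7, the E1-like enzyme, had values of -0.22 and -0.12, and Atg3, the E2-like enzyme for ATG8, 0.07 and 0.19. Atg5 had values of -0.14 and -0.15 and its conjugation partner Atg12 0.04 and -0.05. Atg4d, another protease of the family, had 0.03 and -0.01.

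The 5 genes of the ATG8 family, which encode the ubiquitin-like proteins that coat the autophagosome membrane, did not share a direction. Gabarapl1 was at 434, 458 and 434 CPM in the ad libitum group, at 499, 651 and 475 CPM after 1 day and at 485, 577 and 464 CPM after 1 week. All fasted libraries lay above all ad libitum libraries, with replicate 2 highest in each group. For Gabarapl1 the log2 fold change was 0.29 (SE 0.14, interval -0.01 to 0.60, adjusted p = 0.544) after 1 day and 0.20 (SE 0.14, adjusted p = 0.650) after 1 week, and 0.14 and 0.11 without both libraries that stood apart.

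Map1lc3b, which encodes the LC3B protein used as the common marker of autophagosomes, was at 165, 158 and 160 CPM in the ad libitum group. It was at 149, 133 and 139 CPM after 1 day, below the ad libitum range, and at 139, 130 and 159 CPM after 1 week, partly within it. The log2 fold changes were -0.20 (SE 0.10, adjusted p = 0.549) and -0.17 (SE 0.10, adjusted p = 0.582). Gabarap was at 109, 116 and 108 CPM, then 107, 76.6 and 94.9 CPM, then 108, 105 and 108 CPM. Its value after 1 day was -0.26 (SE 0.12, adjusted p = 0.542), or -0.14 without both libraries. Map1lc3a had values of -0.01 and 0.10 and Gabarapl2 0.09 and 0.04. These genes are close relatives, and the software that estimated the counts divides reads that match several transcripts. How much sequence their transcripts share was not measured, so small differences between them may be uncertain.

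None of the 3 cargo receptors passed. Their values were above 0 in both comparisons with all libraries, but not for Nbr1 in the smaller fit. Sqstm1, which encodes p62, the receptor for ubiquitinated cargo and itself a substrate of autophagy, was at 357, 386 and 343 CPM in the ad libitum group. It was at 413, 406 and 407 CPM after 1 day, all above the ad libitum libraries, and at 391, 424 and 367 CPM after 1 week, overlapping them. For Sqstm1 the log2 fold change was 0.18 (SE 0.10, interval -0.04 to 0.39, adjusted p = 0.567) after 1 day and 0.12 (SE 0.10, adjusted p = 0.692) after 1 week. Without both libraries it was 0.18 and 0.08. Nbr1, a receptor related to p62, had values of 0.16 and 0.04, or -0.06 and -0.05 without both libraries, with 250 CPM in 1 day replicate 2 and 160 to 204 CPM elsewhere. Optn, which encodes optineurin, a receptor for damaged mitochondria, had 0.14 and 0.11, or 0.03 and 0.14 without them.

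The 5 genes of the lysosomal membrane and of lipid export had log2 fold changes from -0.20 to 0.08 after 1 day and from -0.19 to -0.01 after 1 week. Lamp1, a main glycoprotein of that membrane, was at 324, 299 and 332 CPM in the ad libitum group, at 301, 265 and 308 CPM after 1 day and at 314, 267 and 287 CPM after 1 week. The groups overlapped (log2 fold changes -0.13 and -0.14, SE 0.10 each, adjusted p = 0.656 and 0.684). Without both libraries Lamp1 had -0.06 and -0.07. Npc1, which exports cholesterol from the lysosome, had values of -0.20 and -0.19 (adjusted p = 0.577 and 0.620), and -0.16 and -0.09 without them. Lamp2 had -0.03 and -0.04, Npc2, the soluble partner of NPC1, 0.04 and -0.01 (-0.15 and -0.03 without them), and Mcoln1, a calcium channel of the lysosome, 0.08 and -0.01.

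Among the lysosomal proteases, Ctsb and Ctsd encode abundant cathepsins. Ctsd was at 316, 319 and 331 CPM in the ad libitum group, at 300, 196 and 288 CPM after 1 day and at 317, 233 and 311 CPM after 1 week. Replicate 2 was the lowest library in both fasted groups. The log2 fold change was -0.30 (SE 0.17, adjusted p = 0.570) after 1 day and -0.17 (SE 0.17, adjusted p = 0.779) after 1 week, and without both libraries it was -0.13 and -0.03. Ctsb was at 487, 528 and 508 CPM, then 503, 417 and 507 CPM, then 505, 454 and 467 CPM, with values of -0.09 (SE 0.11) in both comparisons (adjusted p = 0.749 and 0.801), and -0.01 and -0.05 without both libraries.

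Ctsl had the highest value of the 44 genes after 1 day, carried by a single library. Ctsl was at 60.0, 72.2 and 73.9 CPM in the ad libitum group, at 81.0, 138 and 69.9 CPM after 1 day and at 80.9, 94.5 and 79.9 CPM after 1 week. The 1 day group overlapped the ad libitum group, and the 1 week group lay above it. The log2 fold change after 1 day was 0.49 (SE 0.22, interval -0.01 to 0.99, adjusted p = 0.542), and 0.14 with 1 day and 1 week replicates 2 left out. After 1 week it was 0.31 (SE 0.22, adjusted p = 0.669). Ctsa, the protective protein of lysosomal sialidase and galactosidase, had values of -0.21 and -0.18, and -0.12 and -0.05 in the smaller fit.

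The 3 genes of the proton pump that acidifies the lysosome lay far apart in 1 day replicate 2, with Atp6v0d1, of the membrane sector, at 76.4 CPM there against 107 to 144 CPM in the other 8 libraries. Atp6v1a, the catalytic subunit, was at 616 CPM against 392 to 500 CPM, and Atp6v1h at 159 CPM against 105 to 128 CPM. The log2 fold changes after 1 day were -0.33, 0.26 and 0.17 in this order, and after 1 week -0.14, 0.17 and 0.00. Without both libraries that stood apart they were -0.11, 0.06 and -0.02 after 1 day and -0.01, 0.12 and -0.09 after 1 week. The lowest adjusted p of the 3 was 0.581 after 1 day and 0.744 after 1 week.

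Differences were also set beside the promoter matches. For the 11 genes with CACGTG the median log2 fold change was -0.13 after 1 day and -0.12 after 1 week, and for the 24 genes whose listed promoters lack it the medians were -0.05 and -0.02. For the 6 genes with TCACGTGA, shown by sequence above, they were -0.07 and -0.07, with values from -0.33 to 0.26 after 1 day. These medians rest on few genes and were not tested.

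Set on a scale per kilobase of transcript, the level in the ad libitum group was highest for Gabarapl1, at 243 ± 7.8 CPM per kb (SD, n = 3). Sqstm1 followed at 178 ± 11, Ctsd at 151 ± 3.8, Lamp1 at 143 ± 7.7, Ctsb at 107 ± 4.3 and Map1lc3a at 100.1 ± 6.3 CPM per kb. Gabarapl1 and Sqstm1 were apart by more than the sum of their SDs, while Ctsd and Lamp1, and Ctsb and Map1lc3a, were not. At the low end were Atg14 at 4.35 ± 0.17, Atg4d at 4.33 ± 0.39 and Mitf at 2.84 ± 0.36 CPM per kb. Tfeb stood at 8.52 ± 1.0 and Ulk1 at 17.3 ± 0.79 CPM per kb. The lengths are those of 1 reference transcript per gene, so the order between near neighbours depends on that choice.

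A further 141 genes of the pathway were counted in 6 lists. Only Ddit4, in the list of nutrient signalling, passed. Ddit4 encodes REDD1, an inhibitor of mTORC1, the kinase that holds ULK1 and TFEB inactive when nutrients are plentiful. Ddit4 was at 38.1 ± 3.9 CPM in the ad libitum group, 98.0 ± 19 CPM after 1 day and 131 ± 30 CPM after 1 week (SD, n = 3). Its log2 fold change was 1.36 (SE 0.19, adjusted p = 0.0478) after 1 day and 1.78 (SE 0.19, adjusted p = 0.00663) after 1 week. With 1 day and 1 week replicates 2 left out, its adjusted p was 0.056 and 0.0276. When single libraries were left out, the log2 fold change after 1 day was 1.21 or more, and Ddit4 passed in 2 of 9 fits, those without 1 week replicate 1 or 2 (adjusted p from 0.0270 to 0.326 over the 9). After 1 week it lay between 1.61 and 1.93, and Ddit4 passed in 7 of 9 fits, but not without ad libitum replicate 1 (adjusted p = 0.0719) or 3 (0.0604). The other 28 genes of this list did not pass, Sesn1 among them with values of 0.40 (adjusted p = 0.450) and 0.42 (adjusted p = 0.251), and the median of the list was 0.08 and 0.05.

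The 25 other autophagy genes had medians of -0.01 and -0.03 after 1 day and 1 week, and their 2 smallest p-values against ad libitum belonged to Vps41, of a membrane tethering complex (-0.24 after 1 week, adjusted p = 0.424), and Atg4c (-0.19 after 1 week, adjusted p = 0.592). The 13 other receptors had medians of -0.07 and -0.11, led by Fundc1, a receptor on mitochondria (-0.26 after 1 week, adjusted p = 0.448), and Tollip (0.16 after 1 day, adjusted p = 0.562). The 15 other subunits of the proton pump had medians of -0.08 and -0.05, led by Atp6v0a2 (-0.19 after 1 week, adjusted p = 0.446) and Atp6v1d (0.34 after 1 day, adjusted p = 0.578, and 0.05 without both libraries that stood apart).

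The lists of lysosomal enzymes and membrane proteins leaned to lower values, though none of their genes passed. Of 37 other lysosomal enzymes 31 (83.8%) were below 0 in each comparison against ad libitum, with medians of -0.12 and -0.12. Of all genes tested, 49.9% and 50.2% were below 0. This share was not counted over genes at 10 CPM or more alone. Of those genes, 11.2% lay wholly below and 8.53% wholly above the ad libitum libraries after 1 day. After 1 week these shares were 14.4% and 7.67%. Hexa, which acts in the breakdown of gangliosides, had -0.47 after 1 week (adjusted p = 0.239) and Sgsh, which degrades heparan sulfate, had -0.39 after 1 day (adjusted p = 0.441). Of 22 other lysosomal membrane and accessory genes 19 and 18 were below 0, with medians of -0.16 and -0.10. Laptm4b, a membrane protein of late endosomes and lysosomes, had -0.35 (adjusted p = 0.359) and -0.37 (adjusted p = 0.162), and Tpcn1, a cation channel, -0.42 after 1 day (adjusted p = 0.503). With 1 day and 1 week replicates 2 left out, the medians were -0.07 and -0.05 for the enzymes and -0.11 and -0.05 for the membrane genes.

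Microglia are rich in lysosomal transcripts, and their markers were lower too, without passing the test. The summed level of 13 microglia markers was 383 to 421 CPM in the ad libitum group, 282 to 327 CPM after 1 day and 260 to 390 CPM after 1 week, and 12 of the 13 were below 0 in both comparisons, with medians of -0.47 and -0.23. None of the 13 was at 0 in any library, and this list shares genes, such as Ctss, with that of the lysosomal enzymes. The summed level of 12 oligodendrocyte markers was 12349 to 15058 CPM, 10334 to 12264 CPM and 10898 to 12527 CPM in the same order. Of these 12, 11 and 10 were below 0 after 1 day and 1 week, with medians of -0.39 and -0.40. After 1 week Trf (-1.11, adjusted p = 0.0322) and Ugt8a (-1.24, adjusted p = 0.0381) fell past the test. Without both libraries that stood apart, the medians were -0.42 and -0.15 for microglia and -0.46 and -0.30 for oligodendrocyte markers. Some other marker lists leaned lower after 1 day too. Below 0 were 6 of 7 endothelial, 4 of 5 choroid plexus and 7 of 7 fibroblast and meninges markers. After 1 week the counts were 6, 5 and 3 in this order. Of 9 dopaminergic neuron markers 6 were below 0 after 1 day and 1 after 1 week. Of 5 cortical glutamatergic neuron markers 5 were below 0 after 1 day and 0 after 1 week. Of 9 astrocyte and 9 neuron markers, 3 and 5 were below 0 in both comparisons. The astrocyte marker Gjb6 rose past the test after 1 week (0.78, adjusted p = 0.0364). The part of any cell type in the lysosomal values was not tested. In tissue lysate, fewer cells of a type and less RNA per cell cannot be told apart.

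**Figure D5:**
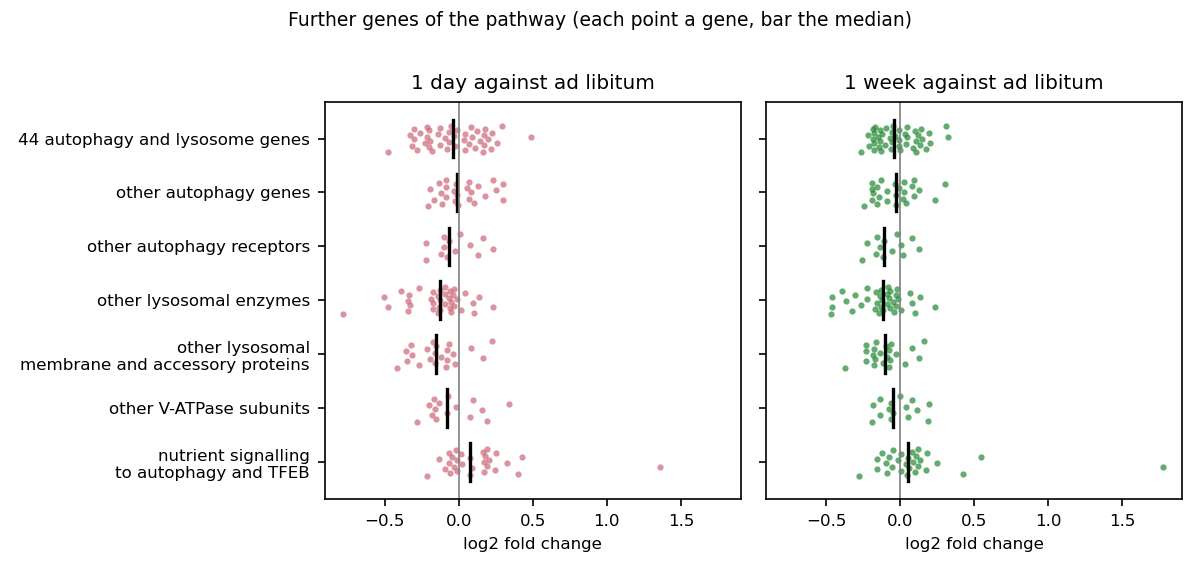
Each point is a gene, the x axis is its log2 fold change against ad libitum after 1 day and after 1 week, rows are the 44 genes and 6 further lists of the pathway, and bars are medians. Ddit4 is the single point beyond 1, in the list of nutrient signalling, and most points of the lysosomal enzymes lie left of 0.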

How the data were processed

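Per the submitters' processing notes, Salmon, DESeq2 1.40.2 and the builds GRCm39 and mm39 were used; Salmon's version, the annotation, the summing of transcripts to genes and the row filter are not given in the sources. RNA was prepared for sequencing with a strand-specific kit (NEBNext Ultra II Directional), per the labels' protocols. The deposited table holds the authors' estimated counts per gene as whole numbers, so none needed rounding. All pairs of libraries differed beyond sampling noise (lowest chi-square per gene 26.5).

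From these counts, tests across genes used edgeR 4.0.16 (R 4.3.3): TMM scaling, filterByExpr (minimum count 10, minimum total 15; 56 rows removed), 1 robust quasi-likelihood model over all 9 libraries, two-sided F tests, and Benjamini-Hochberg adjustment over 20535 genes with a threshold of 0.05. Standard errors and pointwise 95% intervals come from the F statistics. Log2 CPM used a prior count of 2. Transcript length and GC content are of GENCODE M21 transcripts. The procedure was tested on simulated counts. Alternatives were DESeq2 1.42.0, limma 3.58.1 (voom with quality weights), RLE size factors, other filters, only the compared libraries, libraries left out, and a replicate block.

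All 44 genes are accounted for. Those given in full had the 6 smallest p-values of a comparison or belonged to a set of 8 (Ulk1, Tfeb, Map1lc3b, Gabarapl1, Sqstm1, Lamp1, Ctsd and Ctsb); of each further list, genes past the test or else the 2 smallest p against ad libitum are named, and others named with values were picked after the values were seen. The genes, lists and rules were chosen with earlier results of these data known.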

Additional observations from a re-analysis of the deposited data

How the results depend on the processing

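None of the 44 genes passed in any of 17 alternatives. The lowest adjusted p was 0.169 for Tfeb (1 day against ad libitum) and 0.187 for Uvrag (1 week against ad libitum). Between 1 week and 1 day it was 0.501, shared by Gabarap, Tfeb and Tfe3. The median of the 44 genes ranged from -0.06 to -0.03, from -0.05 to -0.02 and from -0.02 to 0.04 in these comparisons. Between the fasted groups it was 0.038 without both libraries that stood apart and ranged from -0.020 to 0.032 when 1 library was left out. Of 44 genes 13, 9 and 32 changed sign in at least 1 alternative. Counts over all genes depended on the setting. After 1 day, where 12 passed, DESeq2 called 184, limma voom 93, a fit of the 6 compared libraries 26 and a fit without both libraries 50; leaving out 1 library gave 0 to 22 (0 without any 1 ad libitum library, 2 without 1 day replicate 1 or 3, 22 without 1 day or 1 week replicate 2, and 20 without 1 week replicate 1). After 1 week, where 63 passed, the counts were 464, 296 and 155 in the same order, and 70 without both libraries. Leaving out 1 library gave 8 to 121. The counts were 8, 11 and 9 without ad libitum replicates 1, 2 and 3, and 30 and 121 without 1 day replicates 1 and 2. They were 96, 22 and 17 when 1 week replicate 1, 2 or 3 was left out. Between the fasted groups, where none passed, DESeq2 called 3, and leaving out 1 library gave 0 to 3 (3 without 1 week replicate 1). With the replicate number as a block, 2 genes passed after 1 day and 32 after 1 week. The numbers were not taken to pair the libraries: over 14395 genes the deviations of same-numbered libraries correlated at -0.27, -0.15 and -0.26 (ad libitum and 1 day), at -0.02, -0.09 and 0.27 (ad libitum and 1 week) and at 0.14, 0.43 and 0.08 (1 day and 1 week). The cause of these shifts was not tested. Fits with libraries left out also differ from the main fit by having fewer libraries. With 3 libraries per group and a median SE of 0.12, small differences were not detectable, and those of 1.5-fold could fail the test too. After 1 day Ddit4, at a log2 fold change of 1.36 with an SE of 0.19, only just passed (adjusted p = 0.0478).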
